A study of Mus musculus with 8 samples.

Results

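The 4 control cultures of this series, out of 8 libraries in all, were described by themselves. They are the cultures labelled as controls of differentiations 1 to 4, and every one of them was taken, so no measured value entered the choice. All came from a line of mouse embryonic stem cells, A2lox.Cre Bcl6, in which a Bcl6 transgene can be switched on with tetracyclines. The controls carry that transgene too. They received DMSO, the solvent, for 24 h and were at day 12 of differentiation. Before differentiation the stem cells were grown on irradiated mouse embryonic fibroblasts with serum and leukaemia inhibitory factor, and they were then plated on gelatin in a defined medium. Cyclopamine, which blocks the hedgehog receptor component Smoothened, was in the medium at 400 ng/ml from day 2 to day 10. The other 4 libraries, in which Bcl6 was induced, are not described here. The labels give a number to each differentiation and say nothing more of how independent the 4 cultures were, and all are of the same line.

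Embryonic stem cells hold a network of transcription factors built around Pou5f1 (Oct4), Sox2 and Nanog, which is shut down as cells take up a germ layer fate. Sox2 is kept on in the neural lineage, where neuroepithelial cells become radial glia that express Pax6, Nestin (Nes), Vimentin (Vim) and the fatty acid binding protein Fabp7. These progenitors give rise, in part through basal progenitors, to neurons that express the tubulin Tubb3. In the embryo the dorsal telencephalon, which forms the cortex, is marked by Emx1, Emx2 and Lhx2, the forebrain and midbrain by Otx2, and the hindbrain and spinal cord by Hox genes.

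The genes of the deposited data held 9.42 M to 9.74 M reads per library, as recovered from scaled values. Reads outside these genes are not included. A level is given in CPM, a gene's value scaled to its library's total, where libraries are compared for 1 gene. It is given in TPM, which also divides by exon length, where genes are compared with each other. Means are given ± SD over n = 4 libraries. The table held 14954 genes, every one of them at 1.05 CPM or more in at least 4 of the series' 8 libraries, so weakly expressed genes are under-represented. Of 628 genes in 39 lists of lineage, regional and functional markers, 527 had a row and 101 had none. A gene without a row was not analysed here. Its level in these cultures is therefore unknown, though no gene with a row was at 0 in all 4 controls. The median gene stood at 27.7 CPM or 23.0 TPM, and the top 10% of genes began at 133 TPM. A gene was counted as varying, or past 2-fold, when its highest control library was at least 2-fold over its lowest, on values with a pseudocount of 1 and among genes with a mean of at least 5 CPM. Of 11820 such genes 601 (5.08%) did so, 140 (1.18%) without control 1, and 342 of 11811 (2.9%) after a trend on transcript length was taken off.

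The cultures carried transcripts of the pluripotency network, several of them at high levels. All 30 genes of the pluripotency list had a row and 27 of them stood above the median gene. The top 10% of genes by TPM held 10 of the 30. The list's median was 79.3 TPM, against 23.0 TPM for all genes. The lists above the median gene numbered 18, and those below it numbered 21.

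Pou5f1, the central factor of the network, was at 613, 558, 525 and 456 CPM in controls 1 to 4. Its mean was 538 ± 65.7 CPM or 886 ± 69.7 TPM. All 4 libraries thus held it at a high level, with the highest 1.34-fold over the lowest. Tdgf1 (Cripto), a coreceptor of Nodal signalling, was at 852, 817, 864 and 725 CPM, with a mean of 1154 ± 90.3 TPM. Dppa5a, an RNA-binding protein of the early embryo, stood highest of the list at 1632 ± 105 TPM. Lin28a, which blocks the maturation of let-7 microRNAs, was at 449 ± 35.9 TPM. These 4 genes differed by no more than 1.34-fold between libraries.

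Nanog was at 165, 161, 173 and 190 CPM, or 286 ± 34.1 TPM. Zfp42 (Rex1), a zinc finger gene tied to the naive state, was at 66.1, 67.1, 81.4 and 95.1 CPM, or 154 ± 34.0 TPM. Both were highest in control 4, and both stood in the top 10%. The lowest members of the list were Tbx3, at 7.98 TPM, and Prdm14, at 12.5 TPM and no member was under 5 CPM. Per kilobase Pou5f1 exceeded Nanog 2.39-fold to 3.71-fold in the 4 libraries.

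The promoters of these last genes are shown because Pou5f1 and Sox2 are known to bind the Nanog promoter together. From RefSeq (GRCm38.p6), windows from 250 bases before to 50 bases after the annotated start were searched on both strands for a composite element, made of the Oct site TTGCAT, 1 base of any kind and the Sox site ACAATG, and for the octamer ATTTGCAT, whose last 6 letters are that Oct site. Capitals mark the matched letters. The Nanog window is chr6:122707239-122707538 on the plus strand, and the Zfp42 window is chr8:43306960-43307259 on the minus strand.
Nanog: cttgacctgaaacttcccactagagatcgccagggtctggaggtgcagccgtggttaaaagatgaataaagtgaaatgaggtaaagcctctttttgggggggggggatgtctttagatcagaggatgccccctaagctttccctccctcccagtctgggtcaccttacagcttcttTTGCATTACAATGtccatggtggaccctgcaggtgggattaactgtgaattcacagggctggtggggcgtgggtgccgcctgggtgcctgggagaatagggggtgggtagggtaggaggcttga
Zfp42: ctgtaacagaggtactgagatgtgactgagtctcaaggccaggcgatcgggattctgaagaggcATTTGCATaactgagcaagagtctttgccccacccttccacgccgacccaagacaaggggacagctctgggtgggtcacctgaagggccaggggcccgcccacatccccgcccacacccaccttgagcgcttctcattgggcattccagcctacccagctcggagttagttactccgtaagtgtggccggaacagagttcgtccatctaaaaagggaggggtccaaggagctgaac
The composite element was found in 4 of 32851 windows (0.0122%), which belonged to 3 genes: Nanog, with 2 overlapping windows, and the predicted genes Gm31224 and Gm34106. The octamer was found in 570 windows (1.74%). Of the pluripotency list, 19 genes had a window, and the octamer was in that of Zfp42 alone. A match describes these letters and does not show that a factor is bound, and binding was not measured. Joint binding at the Nanog promoter was known before the search, so the match there was no test. The share of windows counts exact letters only.

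Genes of the primed epiblast, the later pluripotent state from which the ectoderm arises, had rows for 12 of 12, and 3 were in the top 10%. Dnmt3b, a de novo DNA methyltransferase, was at 181 TPM. Fgf5, the growth factor most often used to mark this state, was much lower, at 16.7 TPM. It was at 11.6, 14.6, 6.82 and 12.2 CPM, with control 3 the lowest, and its 2.13-fold range fell to 1.26-fold without control 3. The germ cell list had 16 of 16 rows and 1 gene in the top 10%, Ifitm1, at 308 ± 31.1 TPM. Ifitm1, an interferon-induced membrane protein, was at 114, 83.7, 82.7 and 85.5 CPM.

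Genes of neural progenitors were present together with the pluripotency genes. Of the 20 genes in that list, which overlaps the other in Sox2, all had a row and 4 were in the top 10%, with a median of 56.6 TPM. Sox2 was at 289, 254, 239 and 246 CPM, or 463 ± 12.3 TPM, and differed least between libraries among the 7 markers set for these cultures (the others are Pax6, Pou5f1, Tdgf1, Fabp7, Tubb3 and Enpp2) once given per kilobase. Fabp7 was at 214, 184, 146 and 174 CPM, or 531 ± 56.6 TPM. Vim, an intermediate filament protein also made by many other cells, was at 523 ± 60.1 TPM, and Nes at 163 ± 15.0 TPM. Control 3 was the lowest library for Fabp7 and Vim.

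Pax6 stood apart from these genes. It was at 18.5, 20.7, 19.6 and 24.2 CPM, or 6.62 ± 1.07 TPM, the lowest of the progenitor list per kilobase and under the median gene. Per kilobase, Pou5f1 exceeded Sox2 1.69-fold to 2.01-fold and Pax6 98.1-fold to 173-fold, in 4 of 4 libraries each. The Pax6 annotation used sums to a long exon length (11694 bases), which lowers its TPM, and its CPM was also under the median gene. RNA was taken from whole cultures, in which fewer cells of a type and less RNA per cell cannot be told apart.

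The Notch pathway, which keeps progenitors undifferentiated through the Hes repressors, had 22 of 22 rows and no gene in the top 10%. Rbpj, the DNA-binding partner of the cleaved receptors, was at 46.5 TPM, Dtx4 at 111 TPM and Notch3 at 67.8 TPM. Of the targets, Hes1 was at 58.6 TPM and Hes5 at 46.8 TPM. Notch1 was at 35.5, 64.4, 90.0 and 101 CPM, lowest in control 1. Its 2.85-fold range was 1.57-fold without control 1 and under 2-fold after the length trend was taken off. Notch1 was the 1 gene past 2-fold of 19 Notch pathway genes of at least 5 CPM, against 5.08% of all such genes.

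**Figure D1:**
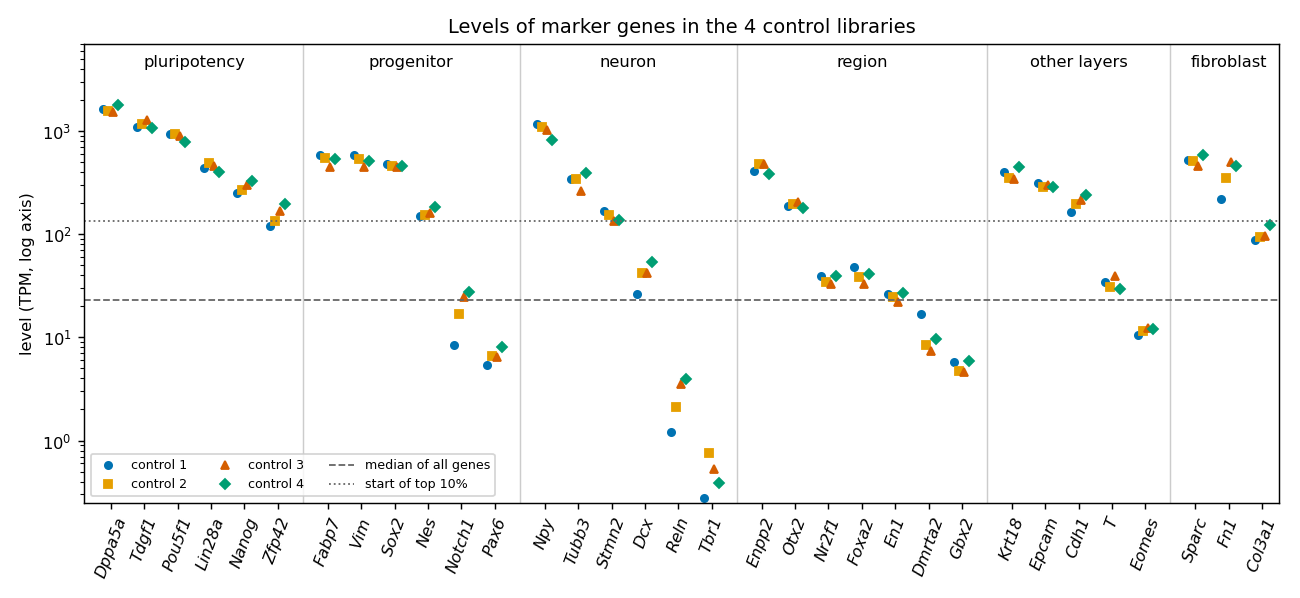
Level of marker genes in TPM (vertical log axis) in each of the 4 control libraries (symbols), grouped by lineage; the dashed line is the median of all genes (23.0 TPM) and the dotted line the start of the top 10% (133 TPM). Pou5f1, Tdgf1 and Dppa5a stand above every progenitor gene shown, while Pax6, Dmrta2, Reln and Tbr1 lie below the median gene in all 4 libraries.

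Genes of neurogenesis and of young neurons were detected at lower levels. Of 15 genes of basal progenitors and neurogenic commitment, 14 had a row, none was in the top 10% and the median was 27.5 TPM. Btg2, an antiproliferative gene of dividing neurogenic progenitors, was at 127 TPM, and Hes6 at 82.7 TPM. The proneural factor Neurog2 was at 27.7 TPM. It was at 22.3, 15.0, 13.8 and 15.8 CPM, with control 1 the highest. Eomes (Tbr2), which marks both cortical basal progenitors and the primitive streak, was at 12.9, 12.8, 13.3 and 13.1 CPM. Its range of 1.04-fold was among the narrowest of the genes named here, a remark made after its values were seen. Neurod2 had no row in the table used here.

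The pan-neuronal list had 22 of 22 rows, 3 of them in the top 10%, and a median of 37.8 TPM. Tubb3 was at 189, 173, 128 and 189 CPM, or 336 ± 52.4 TPM, with control 3 below the others. Stmn2, a regulator of microtubules in growing axons, was at 148 TPM, and Map2, a dendritic microtubule protein, at 39.4 TPM. Dcx, which migrating neurons make, was at 98.6, 142, 137 and 176 CPM, or 41.0 TPM. Rbfox3 (NeuN), a marker of mature neurons, was at 3.99 TPM. The list was lowest in control 3 for 11 of 21 genes of at least 5 CPM, where 30.9% of all such genes were.

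Markers of neuron types were mostly low. The 12 genes of glutamatergic cortical neurons all had rows, with a median of 4.19 TPM and none in the top 10%. Their highest members, Pou3f3 at 36.3 TPM and Cux1 at 21.6 TPM, are also used outside the cortex. Tbr1, a factor of early-born cortical neurons, was at 0.451, 1.10, 0.753 and 0.551 CPM, close to the 0.319 CPM or less that 3 reads would give. Of the Cajal-Retzius list 9 of 9 genes had a row, with Zic1 the highest at 61.4 TPM. Reln, the secreted protein that names the type, was at 8.52, 13.4, 21.5 and 24.3 CPM, a 2.84-fold range that was 1.81-fold without control 1 and 1.60-fold after the length trend was taken off.

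The GABAergic list, with 9 of 10 genes in the table, held a single gene in the top 10%. That gene, Npy, encodes a neuropeptide and was at 197, 167, 149 and 119 CPM, or 1029 ± 159 TPM. Sst, another peptide of interneurons, was at 42.2 TPM, and Npy exceeded it 16.1-fold to 32.8-fold per kilobase. The enzymes of GABA synthesis, Gad2 and Gad1, were at 7.74 TPM and 4.71 TPM. Npy thus stood far above the other genes of its list in all 4 libraries. Of the cholinergic, motor and monoaminergic list 8 of 14 genes had a row, and Lmx1b was the highest at 13.7 TPM.

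Glial genes were low or had no row. Gfap, Aqp4, S100b, Olig1, Sox10 and Cspg4 had none. Of the 7 with a row, Aldh1l1, a folate enzyme of astrocytes, was the highest at 20.0 TPM, and Mbp, the myelin basic protein gene, was at 16.6 TPM.

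The labels call the cells cortical progenitors. The dorsal telencephalic list gave 11 of 14 genes with a row, a median of 5.88 TPM and no gene in the top 10%. Emx1 and Hesx1 were among those without a row. Of the genes with a row Nr2f1 (COUP-TFI), which is also made in other brain regions, was the highest, at 59.1, 46.8, 43.8 and 52.3 CPM or 36.7 TPM. Emx2 was at 5.53 TPM and Lhx2 at 4.59 TPM. The defining markers of the labelled tissue were therefore low or not analysed here, and the cultures are called by their label as controls and not by a region.

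Dmrta2, a factor of the dorsal midline of the telencephalon, was the 1 gene past 2-fold of 8 dorsal genes of at least 5 CPM. Of all such genes 5.08% were past 2-fold. Dmrta2 was at 14.5, 6.66, 5.57 and 7.27 CPM, with control 1 above the other 3 libraries. Its 2.59-fold range was 1.30-fold without control 1 and 2.18-fold after the length trend was taken off. The ventral telencephalic list had 8 of 10 genes in the table, without Gsx2 and Lhx8, and a median of 5.81 TPM.

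Of the regional factors Otx2 stood highest. It was at 233, 220, 224 and 198 CPM, or 192 ± 10.2 TPM. Otx2 is also a factor of the epiblast, and it counts in 4 of the lists. Per kilobase it exceeded En1, a factor of midbrain and isthmus, 6.78-fold to 9.21-fold, and Gbx2, a factor of anterior hindbrain, 30.4-fold to 44.2-fold. The midbrain and isthmus list had 13 of 13 rows, with a median of 13.7 TPM. En1 was at 24.9 TPM and Wnt1 at 34.9 TPM, while Pax2 and Pax8 were under 1 CPM. Of 16 genes of the diencephalon and eye 13 had a row, without Rax, Six6 and Tyr, and the median was 8.70 TPM.

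Of the regional lists, that of hindbrain and spinal cord had the smallest share of genes with a row. Of its 30 genes 22 had no row, and the 8 with a row were all under 5 CPM. Of these, the Hox genes Hoxa2 and Hoxd9 had means of 1.24 and 1.50 CPM. Cdx2, which posterior cells and trophoblast share, was at 1.30 CPM. Egr2, a factor of the hindbrain segments, was at 4.02 CPM, and Atoh1, a factor of the rhombic lip, at 0.864 CPM.

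The list for cortical hem, choroid plexus and roof plate had 19 of 20 genes in the table and 2 in the top 10%, Enpp2 and Otx2. Enpp2 (autotaxin), an enzyme that makes lysophosphatidic acid, was at 694, 744, 717 and 574 CPM, or 438 ± 49.7 TPM. It is abundant in choroid plexus and is also made by other tissues. Ttr, the thyroxine carrier that choroid plexus makes in large amounts, was at 12.9, 10.9, 8.73 and 9.37 CPM, or 32.6 TPM, and Enpp2 exceeded it 11.1-fold to 16.9-fold per kilobase. Folr1, a folate receptor of the same epithelium, was at 48.3 TPM. The most abundant genes of the list were thus those it shares with other tissues, and its median was 17.9 TPM.

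Hedgehog pathway genes had 16 of 16 rows, none in the top 10%, with a median of 23.9 TPM. Ptch1, the receptor and also a target of the pathway, was at 178, 254, 255 and 279 CPM, or 63.8 TPM. Smo, on which cyclopamine acts, was at 79.1 TPM. Shh itself was at 35.2, 28.0, 19.4 and 31.6 CPM, or 37.0 TPM, and the target Gli1 was at 14.9 TPM. Foxa2, a factor of floor plate, midbrain and endoderm, was at 33.4, 24.2, 20.1 and 25.3 CPM. Control 3 was lowest for both Shh and Foxa2. No culture without cyclopamine is among the libraries, so its effect on these levels was not measured.

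Epithelial genes were abundant. The surface ectoderm and epithelium list had 14 of 18 genes in the table and 5 in the top 10%. Krt18 and Krt8, the keratins of simple epithelia, were at 385 TPM and 307 TPM, Epcam at 296 TPM and Cdh1 (E-cadherin) at 205 TPM. Krt18 was at 169, 134, 128 and 166 CPM, Epcam at 201, 171, 169 and 163 CPM, and Cdh1 at 223, 241, 254 and 286 CPM. Epcam and Cdh1 are also genes of pluripotent cells. The keratins of stratified epithelium, Krt5, Krt14 and Krt15, had no row, nor did Ovol1. Thus the abundant members were those of simple epithelia in all 4 libraries.

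Mesoderm and endoderm genes were lower. Of 21 genes of the primitive streak and mesoderm 12 had a row, none in the top 10%, and 9 had none, among them Mixl1, Mesp1, Gsc and Foxf1. The streak factor T (Brachyury) was at 23.3, 18.9, 23.8 and 17.5 CPM, or 33.4 TPM. Of 19 endoderm genes 18 had a row, without Alb, and the median was 8.41 TPM. Its 2 genes in the top 10%, Lamb1 at 145 TPM and Epcam, are made in many epithelia. Cubn, a receptor of absorptive epithelia such as visceral endoderm, was at 17.4, 27.3, 39.3 and 56.4 CPM. It was lowest in control 1 and highest in control 4, and its 3.23-fold range was 2.06-fold without control 1 and 2.20-fold after the length trend was taken off.

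The trophoblast list had 11 of 15 genes in the table, without Elf5, Gcm1, Tpbpa and Psg28, and its 2 in the top 10% were the keratins Krt18 and Krt8 already named. Neural crest had 15 of 17 rows and a median of 10.2 TPM, and its glial gene Sox10 had none. For muscle and heart 9 of 12 genes had a row with a median of 11.5 TPM, without Nkx2-5, Myod1 and Myog, and for endothelium 10 of 12 with a median of 3.05 TPM. Blood and microglia had 4 of 14, the highest of them Tal1 at 6.41 TPM, while the pan-leukocyte gene Ptprc had no row.

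Fibroblast genes were looked at because the stem cells had been grown on fibroblast feeders. Of 20 genes 17 had a row and 2 were in the top 10%. Fn1 (fibronectin) was at 762, 1103, 1517 and 1390 CPM, or 384 TPM, and Sparc at 584, 524, 450 and 572 CPM, or 521 TPM. The collagen gene Col3a1 was at 254, 248, 246 and 313 CPM, or 101 TPM. The summed level of the list was 0.225%, 0.249%, 0.283% and 0.301% of reads in controls 1 to 4, with Fn1 its largest part. The list's median log2 deviation was -0.04, -0.06, -0.07 and 0.20, and so did not rise from control 1 to control 3. Tagln, S100a4 and Twist2 had no row. Fn1 and Sparc are also made by endoderm and other embryonic cells, and the part of feeder cells in these values was not tested.

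**Figure D2:**
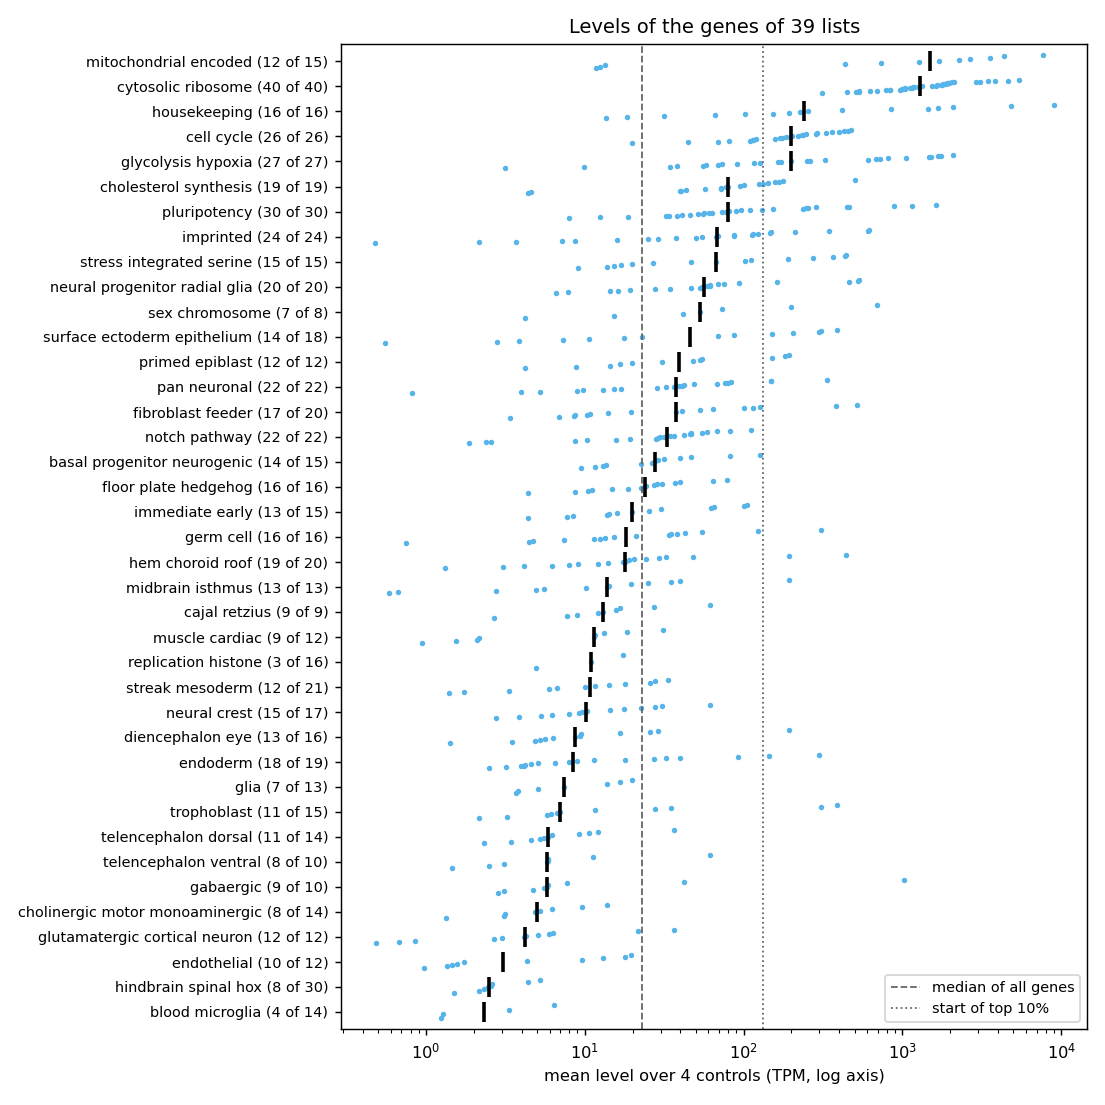
Mean level over the 4 controls in TPM (horizontal log axis) of each gene with a row (dots) in 39 lists, ordered by the list's median (black tick), with the number of genes with a row of the number in the list. The pluripotency list (median 79.3 TPM) lies above the progenitor list (56.6 TPM), and the blood, hindbrain and spinal, endothelial and glutamatergic cortical neuron lists have the lowest medians.

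Genes of protein synthesis and mitochondria led the table. Of the 20 genes highest per kilobase 8 encode ribosomal proteins, 4 are encoded in mitochondria, and 5 are Eef1a1 at 8934 TPM, Eef2 at 4829 TPM, Hsp90ab1 at 5309 TPM, Npm1 at 3446 TPM and Ptma at 2909 TPM. The other 3, Gm23935, Mir6236 and Gm10736, have exons of 57 to 123 bases, for which division by length gives high and uncertain values. All 40 genes of the cytosolic ribosome list were in the top 10%. Of 27 genes of glycolysis and the hypoxia response 16 were in the top 10%, led by Pgk1 at 2071 TPM, Pkm at 1760 TPM, Gapdh at 1669 TPM and Ldha at 1478 TPM.

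The cell cycle list had 18 of 26 genes in the top 10%. Top2a, the topoisomerase of dividing cells, was at 1034, 1163, 1177 and 1204 CPM, or 473 TPM. Mki67 (Ki-67) was at 347, 452, 661 and 642 CPM, with control 1 the lowest, over a 1.91-fold range. Most of the list went the other way. Of its 26 genes 3 were lowest in control 1, where 33.7% of all genes were. Highest there were 15, against 42.1% of all genes. The list's median log2 deviation was 0.10 in control 1 and -0.09 in control 3. After a trend on transcript length was taken off it was -0.02 and -0.06. The replication licensing gene Mcm3 was at 451 TPM. Of 19 genes of cholesterol synthesis 5 were in the top 10%, with Hmgcs1 at 501 TPM. Fdps of this list has near-identical copies in the genome, and its value, like those of Rpl13a and the mitochondrial genes mt-Co2, mt-Co3 and mt-Atp6, is uncertain. The serine and stress response list had 5 of 15 in the top 10%, with the serine enzyme Psat1 at 441 TPM, and the immediate early list none of 13 with a row, led by Ier2 at 105 TPM.

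Replication-dependent histone genes had a row for 3 of 16. Of these Hist1h4i was under 1 CPM. The messages of these genes mostly lack the poly(A) tail that mRNA kits select, and the part of this in the values was not tested. All 24 imprinted genes had a row and 6 were in the top 10%. Igf2, a fetal growth factor expressed from the paternal copy, was at 917, 868, 867 and 1123 CPM, or 614 TPM, and its neighbour H19 at 113 TPM. Peg10 was at 611 TPM and Mest at 346 TPM. The Y-linked genes Ddx3y, Eif2s3y, Uty and Kdm5d were present in all 4 libraries, Ddx3y at 39.9, 68.3, 63.3 and 57.7 CPM, and Xist had no row. Bcl6, whose transgene was not induced in these cultures, was at 6.61, 6.01, 7.12 and 6.21 CPM, or 3.60 TPM. Reads of the transgene and of the endogenous gene cannot be told apart.

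The controls were next compared with each other. With 1 library per differentiation there is no replicate of any of them, so spread is described without a test. Of the 601 genes past 2-fold 49 were past 4-fold. The median gene differed 1.31-fold. Of 444 list genes of at least 5 CPM 18 passed 2-fold (4.05%), a share close to that of all genes.

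Most of this spread came with control 1 and control 3. Of the 601, 486 were lowest in control 1 and 416 were highest in control 3. Leaving out a library cannot raise the count of genes past 2-fold. It fell to 140 without control 1 and to 355 without control 3. Without control 2 it was 561, and without control 4 it was 529. The variance between a pair of libraries, divided by that of read sampling, was 35.6 for controls 1 and 3, 26.5 for 1 and 4, and 15.3 for 1 and 2. It was 11.4 for controls 2 and 3, 6.61 for 3 and 4, and 5.58 for 2 and 4. Controls 2 and 4 were thus the closest pair. The ratio orders the pairs and is no test, since separate cultures are set against read sampling alone.

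The deviations followed transcript length. Across 11811 genes, Spearman's rho between a gene's deviation from its mean and its exon length was -0.68 in control 1, 0.15 in control 2, 0.51 in control 3 and 0.45 in control 4. These values describe genes of the same 4 libraries, which are not independent of each other. Genes were split by exon length into 10 groups of like size. In the group of longest genes the median log2 deviation was -0.36 in control 1 and 0.21 in control 3, and in the group of shortest genes it was 0.30 in control 1. Of the longest group 22.5% varied at least 2-fold, against 1.69% in the fifth group. After a smooth trend on length was taken off each library, 283 of the 342 genes still past 2-fold were among the 601. Whether the trend arose in the cells or in the libraries was not tested.

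**Figure D3:**
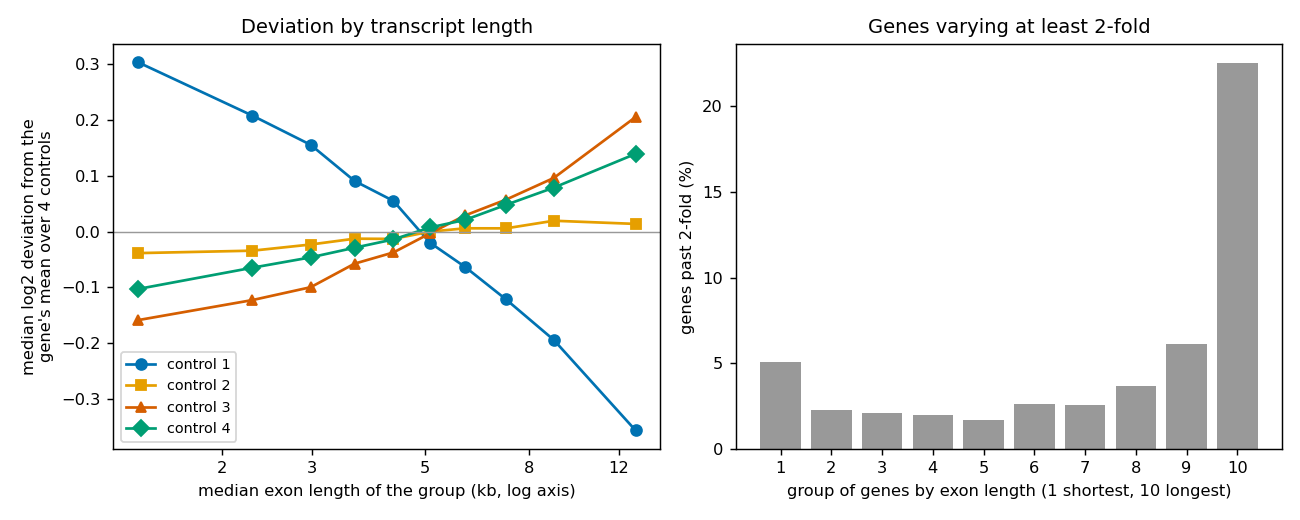
Left, median log2 deviation of each control library from the gene's mean over the 4 controls, for 10 groups of genes by exon length (log axis in kb); right, percent of the genes of each group that varied at least 2-fold. Control 1 falls from 0.30 in the shortest to -0.36 in the longest group, and 22.5% of the genes of the longest group varied.

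The genes of largest spread were in large part noncoding. Of the 25 with the largest SD of log2 level, 12 are annotated as protein coding, 4 as long intergenic RNA, 3 as antisense, 1 as sense intronic, 4 as transcripts still to be experimentally examined (TEC), and 1 had no annotation in the release used. All 25 were lowest in control 1 and 24 were highest in control 3. Without control 1, 19 of them still differed at least 2-fold, and 19 were also among the top 25 once the length trend was taken off. Over all genes of at least 5 CPM, these 25 included, 22 of 78 long intergenic RNAs and 8 of 17 TEC genes varied at least 2-fold, against 527 of 11440 protein-coding genes (4.61%).

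Malat1, a long RNA kept in nuclear speckles, was at 80.9, 143, 617 and 241 CPM. Its 7.63-fold range was 4.33-fold without control 1, 2.98-fold without control 3 and 6.82-fold after the length trend was taken off. Kcnq1ot1, the long antisense RNA that silences the imprinted Kcnq1 domain, was at 2.25, 3.21, 27.1 and 13.8 CPM. Its 11.8-fold range was 6.02-fold without control 3 and 4.68-fold after the length trend was taken off. Both nuclear RNAs were lowest in control 1 and highest in control 3. The kit marks strand, but whether the counting used it is not given in the sources used here, so reads of Kcnq1ot1 and of the genes it overlaps may be mixed. The widest range, 64.5-fold, was that of Gm42664, a sense intronic RNA at 0.351, 3.61, 25.8 and 9.67 CPM, and control 1 held 3 reads of it. It was 24.3-fold without control 3 and 7.07-fold without control 1. It lies within an intron of another gene, and unspliced reads of that gene cannot be told apart from its own.

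Among the protein-coding genes Dcc, the netrin receptor of growing axons, was at 5.31, 21.0, 28.8 and 35.5 CPM. Its 6.64-fold range was 1.69-fold without control 1, and it was the only gene of the 25 that was highest in control 4. Zfp871 was at 13.1, 59.9, 83.6 and 75.4 CPM, and Lnpep, a membrane aminopeptidase, at 13.0, 53.4, 68.9 and 67.1 CPM. For Zfp871, Lnpep and Lcor, a transcriptional corepressor, controls 2 to 4 lay within 1.40-fold of each other, so the range rested on control 1. Ttn, the giant muscle protein titin, ranged 9.30-fold as measured and 2.63-fold after the length trend was taken off. Zbtb20, a zinc finger repressor, ranged 5.07-fold and 2.32-fold in the same terms.

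**Figure D4:**
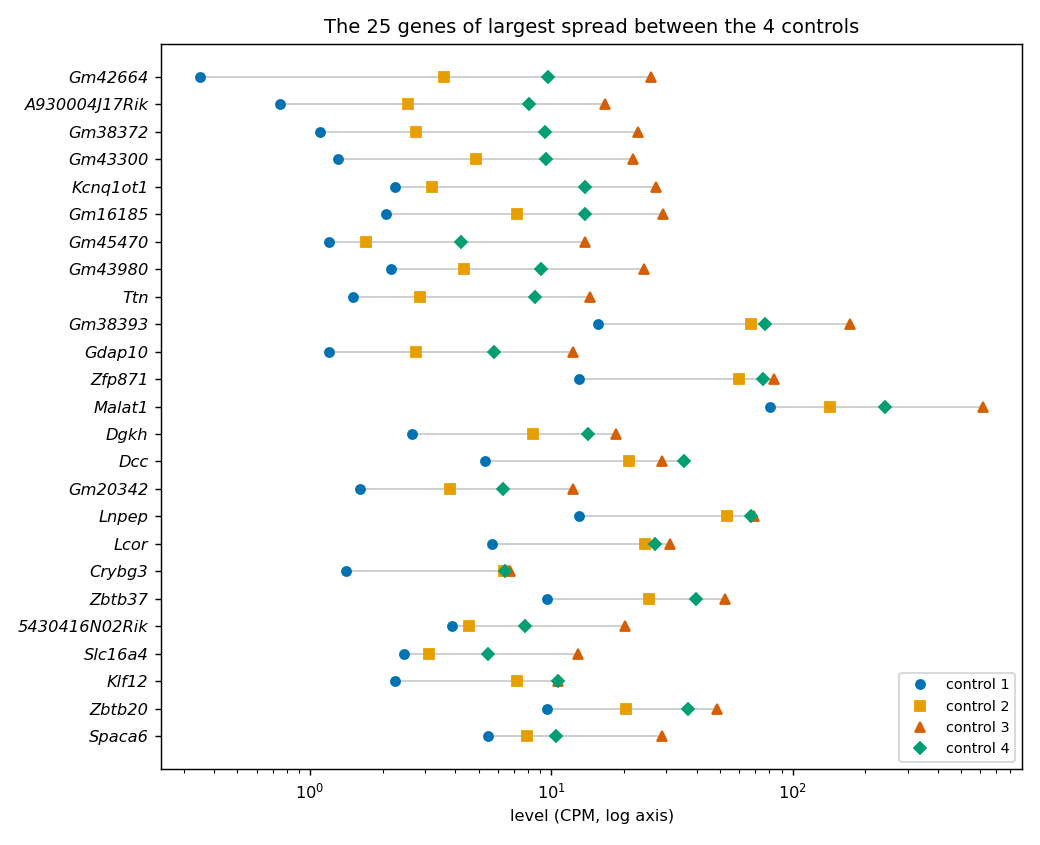
Level in CPM (log axis) of the 25 genes of largest spread between the 4 controls, ordered by the SD of log2 level, with 1 symbol per library. Control 1 is the lowest library for all 25 genes, and control 3 is the highest for all but Dcc.

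Each library was then set against the mean of the other 3. In control 1 the genes farthest above were Scand1, Gm23935, Pcsk1n, Gnas and Gm1673, by 1.23 to 1.86 on the log2 scale. Scand1, a zinc finger-associated SCAN domain protein, was at 13.9, 2.65, 4.87 and 4.21 CPM, a 5.17-fold range that was 3.28-fold without control 2 and 1.82-fold without control 1. Gnas, which encodes a G protein subunit, was at 11.5, 2.75, 7.42 and 4.96 CPM, a 4.11-fold range that was 2.66-fold without control 1 and 2.30-fold without control 2. It lies in a locus of overlapping transcripts whose reads the counting could split, so its value is uncertain. In control 3 the genes farthest below were Pga5, Gm16551, Rsph3a, Kctd12 and Fgf5, by 0.89 to 1.11.

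Control 2 and control 4 departed less. In control 2 the gene farthest above was the lipoxygenase gene Alox15, by 0.75, and in control 4 the same gene was 1.04 below. Alox15 was at 5.76, 7.81, 5.67 and 3.06 CPM, a 2.53-fold range that was 1.38-fold without control 4. The genes farthest below in control 2 were Kcnq1ot1, Gnas, Pcsk1n, Aoc2 and Scand1, by 1.30 to 1.55. Lmbrd2, also among the 5 farthest above in control 2, was at 14.0, 52.2, 55.2 and 53.2 CPM, a 3.93-fold range that was 1.06-fold without control 1. The genes farthest above in control 4 were Gm42664, A930004J17Rik, Dcc, Kcnq1ot1 and Gm38372, all of which were highest or second highest there and lowest in control 1.

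Of the 30 genes of the pluripotency list 2 varied at least 2-fold, Tet1 and Tfcp2l1, against 5.08% of all genes. After the length trend was taken off 2 genes of the list did, against 2.9% of all genes. Without control 1 none did, against 1.18%. Tet1, which oxidises methylated cytosine, was at 95.1, 193, 317 and 300 CPM, a 3.33-fold range that was 1.64-fold without control 1 and 2.14-fold after the length trend was taken off. Tfcp2l1, a factor of naive stem cells, was at 43.6, 77.2, 92.7 and 113 CPM, a 2.58-fold range that was 1.46-fold without control 1. Both are long transcripts and both were lowest in control 1. The other 28 pluripotency genes differed less than 2-fold. The list's median log2 deviation was 0.03, -0.10, 0.01 and 0.09 in controls 1 to 4, and -0.11, -0.08, 0.07 and 0.17 after the length trend was taken off. Of the 30 genes 15 were highest in control 4, where 19.2% of all genes were, and 14 were lowest in control 2, where 17.7% of all genes were.

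Of 23 imprinted genes with at least 5 CPM 6 passed 2-fold, against 5.08% of all genes: Kcnq1ot1, Gnas, Meg3, Zim1, Igf2r and Peg3. After the length trend was taken off 4 did, against 2.9% of all genes, and without control 1 there were 3, against 1.18%. The values of Kcnq1ot1 and Gnas are uncertain, and the share was not tested. Meg3, a maternally expressed long RNA, was at 109, 116, 336 and 157 CPM, highest in control 3. Its 3.10-fold range was 1.44-fold without control 3. Peg3, a paternally expressed zinc finger gene, was at 257, 400, 543 and 542 CPM, and its 2.11-fold range was 1.36-fold without control 1.

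Mitochondrial transcripts were set apart in control 3. They took 1.15% of its reads against 0.724% to 0.750% in the other 3 libraries. Of 9 genes of at least 5 CPM 8 were highest there, where 25.6% of all genes were, and the list's median log2 deviation was 0.49. Of these 9 genes 1 was past 2-fold as measured, 6 after the length trend was taken off and none without control 1. mt-Co1, a subunit of cytochrome oxidase, was at 2634, 2858, 4363 and 2766 CPM, a 1.66-fold range that was 1.09-fold without control 3. mt-Nd5, a subunit of complex I, was at 806, 965, 1639 and 1006 CPM, a 2.03-fold range that was 1.25-fold without control 3. The share of mitochondrial reads was thus highest in control 3, as were Malat1, Kcnq1ot1 and Meg3. In control 4 the share was the lowest, at 0.724%, while these 3 genes were second highest there. A link between the share and these genes was not tested.

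Ribosomal protein genes were highest in control 1. They took 6.25% of its reads against 4.76% to 5.39% in the others, and 40 of 40 genes of the ribosome list were highest there, where 42.1% of all genes were. The list's median log2 deviation in control 1 was 0.25. Their transcripts are short, and after the length trend was taken off the deviation was 0.02. Of the sex chromosome list all 7 genes were lowest in control 1, where 33.7% of all genes were. The list's median deviation there was -0.35, and -0.24 after the length trend was taken off. The Y-linked demethylase gene Kdm5d ranged 2.31-fold, 1.52-fold after the length trend was taken off and 1.59-fold without control 1.

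**Figure D5:**
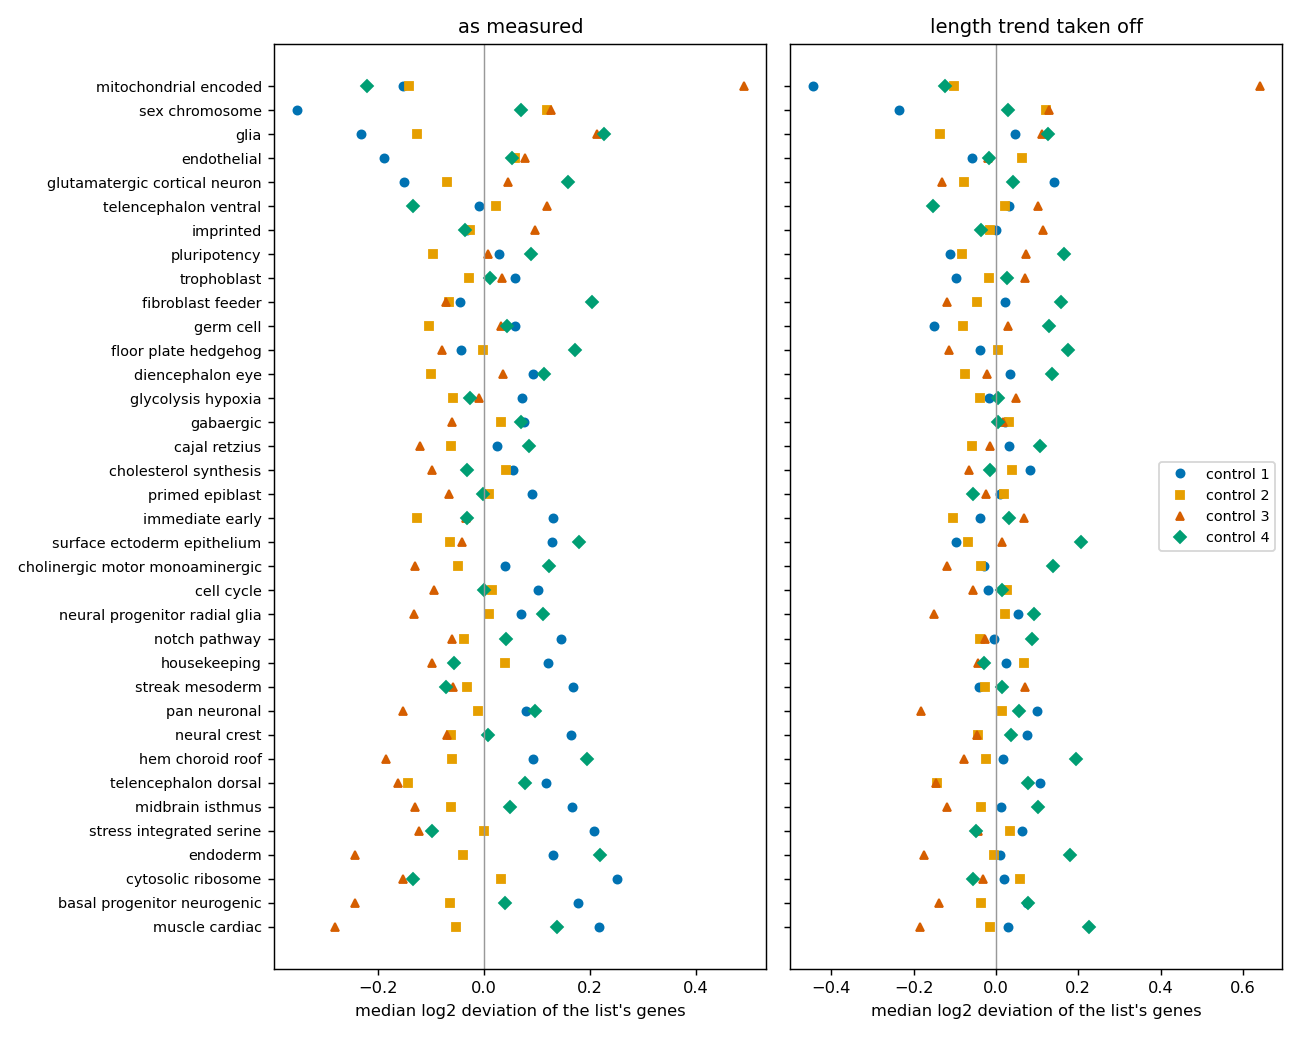
Median log2 deviation of each list's genes (at least 5 CPM, lists with 3 or more such genes) in the 4 control libraries, as measured (left) and after the trend on transcript length was taken off each library (right). The mitochondrial list stands at 0.49 in control 3 as measured, and the ribosomal list moves from 0.25 to 0.02 in control 1.

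Other lists held 1 varying gene or none, where 5.08% of all genes of at least 5 CPM varied. Of such genes, 1 of 19 passed 2-fold in the progenitor list and in the Notch list, Notch1 in both. The count was 1 of 25 in the glycolysis list and 1 of 15 in the stress list. It was 1 of 11 in the endoderm list and 1 of 10 in the primed epiblast list. It was 1 of 9 in the Cajal-Retzius and mitochondrial lists and 1 of 8 in the dorsal telencephalic list. In the sex chromosome list it was 1 of 7 and in the blood list 1 of 2. After the length trend was taken off no gene passed 2-fold in the progenitor, Notch, glycolysis, Cajal-Retzius, sex chromosome and blood lists. The count was still 1 in the stress, endoderm, primed epiblast and dorsal telencephalic lists, and it was 6 in the mitochondrial list. Of all genes 2.9% then passed. These shares rest on few genes and were not tested. In the glycolysis list the varying gene was Pfkp, a phosphofructokinase, at 140, 147, 308 and 191 CPM, whose 2.21-fold range was 1.36-fold without control 3. In the stress list it was Ddit3 (CHOP), at 15.4, 17.2, 31.7 and 20.9 CPM, whose 2.05-fold range was 1.36-fold without control 3. Both were highest in control 3, where 25.6% of all genes were. In the glycolysis list 6 of 25 genes were highest there, and in the stress list 1 of 15. Highest in control 1 were 17 glycolysis genes and 9 stress genes, against 42.1% of all genes. No gene passed 2-fold among 21 pan-neuronal, 14 basal progenitor, 16 hedgehog, 12 epithelial, 17 fibroblast, 26 cell cycle and 40 ribosome genes. With a pseudocount of 0.1 there was 1 in the hedgehog list and 1 in the cell cycle list, and with median-of-ratios scaling 1 in the fibroblast list.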

How the data were processed

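Per the labels' protocols, the kit for the libraries was TruSeq stranded mRNA. Tools named in the submitters' processing notes are edgeR 3.20.1, HTSeq 0.9.1 and STAR 2.5.3a on build mm10, without their roles. The values the authors deposited are a score: whole numbers summing to 19.93 M to 19.96 M in every library. At least 99.7% of values under 3000 lay on multiples of a step of 2.05 to 2.12 per library, rounded up, against at most 51.3% on a shifted step, and dividing by the step gave the reads. Decimal commas had split lines into 36 cells under 24 names, and all 14954 lines were rejoined.

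CPM is a value over its library's total. TPM divides by exon length from GENCODE M21, in which 14930 genes matched. Spread used log2(value + 1) of values scaled to 20 M, genes with a mean of at least 5 CPM, and a lowess trend (span 0.3) on log length. Scripts ran in Python 3.11.15 with scipy 1.17.1 and statsmodels 0.14.6, and were tested on simulated data. Sampling variance covers counting error only. Each differentiation had 1 control library, and induced cultures were not compared.

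Members and the 39 gene lists were chosen with earlier results of these data known. Genes were named from a rule: the 7 markers and Bcl6, up to 4 highest members of each list, members under 1 CPM or without a row, the 20 highest per kilobase, the 25 of largest spread and each list's most variable member, and the 5 farthest above and below in each library. Others were named after their values were seen, and some genes are not reported here. Alternatives were other scalings, minimums, pseudocounts, a length correction, sampling variance taken off and leaving out each library.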

Additional observations from a re-analysis of the deposited data

Results flagged for a closer look

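For 62 genes named in the report and 4 measures of the libraries, the gap of the most extreme library to its nearest neighbour was divided by the range over the 4 libraries. A ratio above Dixon's 95% critical value for 4 samples was taken as a library far from the others. Chance alone passes this in about 1 of 20 groups, and 5 of the 66 values did so, among genes some of which were named for their spread. The share of mitochondrial reads had a ratio of 0.938, with control 3 the highest at 1.15%, and mt-Co1, which is part of that share, had 0.870, with control 3 at 4363 CPM. Lmbrd2 had 0.926, with control 1 the lowest at 14.0 CPM. Ifitm1 had 0.909, with control 1 the highest at 114 CPM, and Col3a1 had 0.877, with control 4 the highest at 313 CPM.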

How the results depend on the processing

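The number of genes varying at least 2-fold, 601, depended on the low-level minimum. It was 1657 with a minimum mean of 1 CPM, 1779 with none and 304 with 20 CPM. With the length trend taken off it was 342. Leaving out 1 library at a time gave 140 to 561, with the lowest value without control 1 and 355 without control 3. It stayed between 533 and 621 with median-of-ratios scaling, pseudocounts of 0.1 and 10, and sampling variance taken off. Of list genes, 18 passed 2-fold, and 6 to 17 did with a library left out. The list genes in the top 10%, 140, numbered 140 to 143 when genes were ordered by CPM or a library was left out. Median-of-ratios scaling could not change this count, since TPM is scaled within each library. With the length trend taken off, the variance over sampling fell from 35.6 to 19.1 for controls 1 and 3 and from 26.5 to 13.2 for controls 1 and 4. With a minimum of 20 CPM, it was 46.8 for controls 1 and 3, and the relation to length kept its sign in all 4 libraries. The median CPM of each of 39 lists and the mean CPM of each of 62 genes moved by less than 1 SD over libraries under scaling. They also did so with each library left out. For the gene means this was no check, since leaving out 1 of 4 values cannot move their mean by 1 SD. Of 549 recomputed ranges of named genes, 30 moved by over 1.5 times, 14 of them without control 1. Taking sampling variance off the list counts was added after seeing the data. At 9.42 M to 9.74 M reads, 3 reads correspond to 0.308 to 0.319 CPM, and genes near that level cannot be ranked. The table leaves out weakly expressed genes, and the cause of the length trend was not tested. No paired analysis was possible because only 1 group is described here and no 2 groups were compared.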
